A study of Mus musculus with 17 samples.

Results

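The HSP90, HSP70 and DNAJ chaperones were followed in cultured erythroid blasts of Spi1-transgenic mice. The members were the genes named Dnaja, Dnajb or Dnajc, or Hspa, Hspb or Hspe, with a number, together with Hsp90aa1, Hsp90ab1, Hsp90b1, Hspd1, Hsph1, Trap1, Hsf1 and Hsf2. This gave 72 of the 28600 genes of both count tables, 71 in the table of model 1 and 69 in that of model 2. Names with a hyphen, which mark pseudogenes and related sequences, were left out (12 in model 1 and 7 in model 2). A filter on low counts was passed by 62 members in model 1 and 60 in model 2.

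Chaperones bind proteins that are not yet folded or that have unfolded. HSP70 proteins bind and release short hydrophobic stretches of a client in an ATP-driven cycle, and the J-domain proteins (DNAJ) bring clients to HSP70 and trigger its ATP hydrolysis. HSP90 receives clients late in folding, among them kinases and steroid receptors, while HSP60 with its lid HSP10 encloses proteins within mitochondria. HSF1 is the transcription factor that raises many of these genes under heat or proteotoxic stress, and erythroid cells depend on HSP70 during the synthesis of haemoglobin and the protection of GATA1.

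By their labels all mice carried the Spi1 transgene, made to overexpress the transcription factor SPI1 (PU.1), and all blasts were grown with erythropoietin (EPO). Model 1 held mice of a DBA2J by FVB/N cross: 4 TgSpi1FA+/+ preleukaemic mice (preleukemic_138, preleukemic_445, preleukemic_451 and preleukemic_479, each named by the end of its sample title), 3 TgSpi1FA-/- preleukaemic mice without Fanca (preleukemic_40, preleukemic_77 and preleukemic_224) and 3 TgSpi1FA-/- leukaemic mice (leukemic_26, leukemic_28 and leukemic_39). Model 2 held DBA2J mice with intact Fanca, 4 preleukaemic (preleukemic_633, preleukemic_663, preleukemic_812 and preleukemic_837) and 3 leukaemic (leukemic_601, leukemic_606 and leukemic_921). The blasts came from the spleens of sick mice. The study describes the leukaemic cells of model 2 as obtained by repeated blood transfusion of preleukaemic mice. Preleukaemic blasts depend on EPO, leukaemic ones do not, and the labels give no age. Each mouse gave 1 library of polyadenylated RNA, from 400 ng with 8 min of fragmentation in model 1 and from 300 ng with 2 min in model 2, so levels of the models are not tested against each other. For preleukemic_40, preleukemic_77 and preleukemic_224 the sample titles say preleukaemic, whereas their source names say leukaemic, and the titles were used. The cultures were populations of cells in which fewer cells expressing a gene and less RNA per cell cannot be told apart.

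Library totals ran from 29964576 to 38217654 counted reads in model 1 and from 37726753 to 40514205 in model 2. Levels are given as CPM, that is counts scaled to the TMM-adjusted library size. Fanca was at 28.2 to 83.5 CPM in the TgSpi1FA+/+ mice of model 1 and at 0.615 to 2.30 CPM in the TgSpi1FA-/- mice. Spi1 was at 467 to 1061 CPM in the preleukaemic mice of model 1 and at 629.9, 219.7 and 3.88 CPM in leukemic_26, leukemic_28 and leukemic_39, so the level in leukemic_39 goes against overexpression. The part of this in the results was not tested, and the calls without leukemic_39 are given beside the first comparison. Each of the 10 erythroid markers was counted in every group. Their sum was 4953 to 8105 CPM in TgSpi1FA+/+ preleukaemic, 4895 to 5503 CPM in TgSpi1FA-/- preleukaemic and 2201 to 5025 CPM in leukaemic mice of model 1. Of these markers Klf1 was at 292 to 351 CPM in TgSpi1FA-/- preleukaemic and at 99.2 to 158 CPM in leukaemic mice, without overlap. Gata1 was at 344 to 575 CPM in model 1. Summed myeloid markers stayed at 4.45 CPM or less in model 1 and 10.1 CPM or less in model 2, with Elane at 0 in all preleukaemic mice of model 1. Summed megakaryocyte markers (5 genes) were 31.3 to 40.1 CPM in TgSpi1FA-/- preleukaemic and 167 to 252 CPM in leukaemic mice. They were 45.4 to 196 CPM in TgSpi1FA+/+ preleukaemic mice. The 2 T cell markers in the table summed to 0.819 to 1.23 CPM in TgSpi1FA-/- preleukaemic and 3.81 to 5.26 CPM in leukaemic mice, and the 3 B cell markers to 0.521 CPM or less. In model 2 summed mast cell markers (5 genes, Tpsb2 at 0 in preleukaemic mice) were 2.57 to 55.7 CPM in preleukaemic and 64.4 to 72.5 CPM in leukaemic mice. The part of these markers in the changes below was not tested. Libraries preleukemic_445 and preleukemic_479 were closer to each other than any other pair of replicates of that table (8.53 of chi-square per degree of freedom, against 114 to 372). They still differed by more than sampling noise and were kept apart, and the calls that change when they are averaged are named below. In the other table of counts, described further on, preleukemic_445 and preleukemic_479 stood at 350, against 393 to 742 for the other pairs of replicates. Why this pair was so close in the first table only was not tested.

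Sequences upstream of the starts were read from RefSeq (build GRCm38.p6), which held 75 promoter windows for 58 members, each with 250 bases before and 50 after a start. The heat shock element is built of inverted GAA units, searched here as GAANNTTC and as TTCNNGAA, each of which reads the same on both strands. GAANNTTC was in 14 windows of members (18.7%) and in 7.86% of all 32851 windows, and TTCNNGAA in 8 (10.7%) and 8.52%. A run of 3 units (GAANNTTC followed directly by NNGAA, or its reverse complement) includes both shorter motifs. It was in 6 windows of members (8.0%), those of Dnajb6, Hspd1, Hspe1 and Hsph1, and in 0.603% of all windows. The windows of Dnajb6 overlap each other, as do those of Hsph1 and those of Hspd1 and Hspe1. Counts of windows are therefore not counts of separate sites. The stretches below are those of the mitochondrial pair and of some members described further on, with matches in capitals. Other members with a match, among them Hsph1, Dnaja1, Dnajb4 and Dnajc10, are not printed. Hspe1 and Hspd1 lie head to head and share 1 stretch, printed on the strand of Hspe1, and the stretches of Hspa1a and Hspa1b are the same 18 bases.
Hspe1 and Hspd1, chr1:55088054-55088081, plus strand: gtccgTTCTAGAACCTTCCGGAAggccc
Dnajb6, chr5:29735847-29735869, plus strand: tccgaGAATCTTCCGGAAcgcta
Dnaja4, chr9:54699464-54699481, plus strand: tccgcGAACGTTCtgggc
Dnaja4, chr9:54699502-54699519, plus strand: tggcgGAACCTTCcgccg
Hspb6, chr7:30553176-30553193, plus strand: ttattGAAGTTTCtaaat
Hspa1a, chr17:34972248-34972265, minus strand: tgctgGAAGATTCctggc
Hspa1b, chr17:34959330-34959347, minus strand: tgctgGAAGATTCctggc

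The endoplasmic reticulum (ER) stress response element, CCAAT and CCACG with 9 bases of any kind between them, on either strand, was in 0.119% of all windows and in those of 3 members (4.0% of their windows): Hspa5 (BiP, the HSP70 of the ER), Hsp90b1 (GRP94, the HSP90 of the ER) and Dnajc3 (p58IPK, a J-domain protein of the ER). These letters stand 65 to 47 bases before the RefSeq start of Hspa5 and 105 to 87 bases before that of Dnajc3. In the GENCODE M21 annotation the stretch of Hspa5 lies in an exon of Hspa5. The stretch of Dnajb6 and the second of Dnaja4 likewise lie in exons of these genes, and that of Hspe1 and Hspd1 in an exon of Hspd1. They are thus upstream of RefSeq starts, but not of every annotated start. A match is a description of the sequence and not a bound site.
Hspa5, chr2:34772020-34772048, plus strand: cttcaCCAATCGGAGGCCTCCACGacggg
Hsp90b1, chr10:86705633-86705661, minus strand: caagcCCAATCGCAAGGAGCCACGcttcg
Hsp90b1, chr10:86705528-86705556, minus strand: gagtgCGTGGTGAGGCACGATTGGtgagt
Dnajc3, chr14:118937822-118937850, plus strand: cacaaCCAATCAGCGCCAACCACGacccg

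Leukaemic and preleukaemic TgSpi1FA-/- blasts were compared first, which asks what goes with leukaemic progression when Fanca is absent. Of the 62 members tested, 3 rose (Hspa12b, Dnajc22 and Hspb11) and 6 fell (Dnaja4, Dnajb1, Dnajb12, Dnajc6, Hspa4l and Hspb6). A call required an adjusted p under 0.05 in edgeR's quasi-likelihood test (Benjamini-Hochberg over 13393 genes) and a fold change of at least 1.5. Hspa12b and Dnajc22 passed the filter on low counts only through the leukaemic mice in which they were high, so they had to differ, and the count of 3 is no support for a rise among the members. Over all genes 6.82% were called higher and 6.49% lower, so both counts were close to the share of all genes. An unadjusted p under 0.05 was reached by 27 members, 11 higher and 16 lower, against 32.4% of all genes. The groups did not overlap for 32 members and for 38.7% of all genes. The median log2 fold change was -0.08 over the members and -0.0012 over all genes. DESeq2 called 6 members higher and 7 lower, with 12.1% and 7.71% of all genes. Besides 8 of the 9 genes above, all but Dnajb1, it called Hspd1, Hspa1b and Hspa12a higher and Dnajc19 and Dnajc4 lower. The number of calls changed when single mice were left out: 0 were left without leukemic_28, 1 without preleukemic_224, 3 without leukemic_39, preleukemic_40 or preleukemic_77 and 5 without preleukemic_445 or preleukemic_479, or with these 2 averaged, where Dnajb1, Hspa4l, Hspb6 and Hspb11 lost their calls. The 3 calls without leukemic_39 were Dnaja4, Dnajc6 and Hsf1. Without leukemic_26 the count was 13, which included Dnajb9 and Hspd1, while Dnajb1 and Hspb11 lost their calls. The share of all genes called was not computed under these alternatives, so the changing counts are no result about the members.

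**Figure D1:**
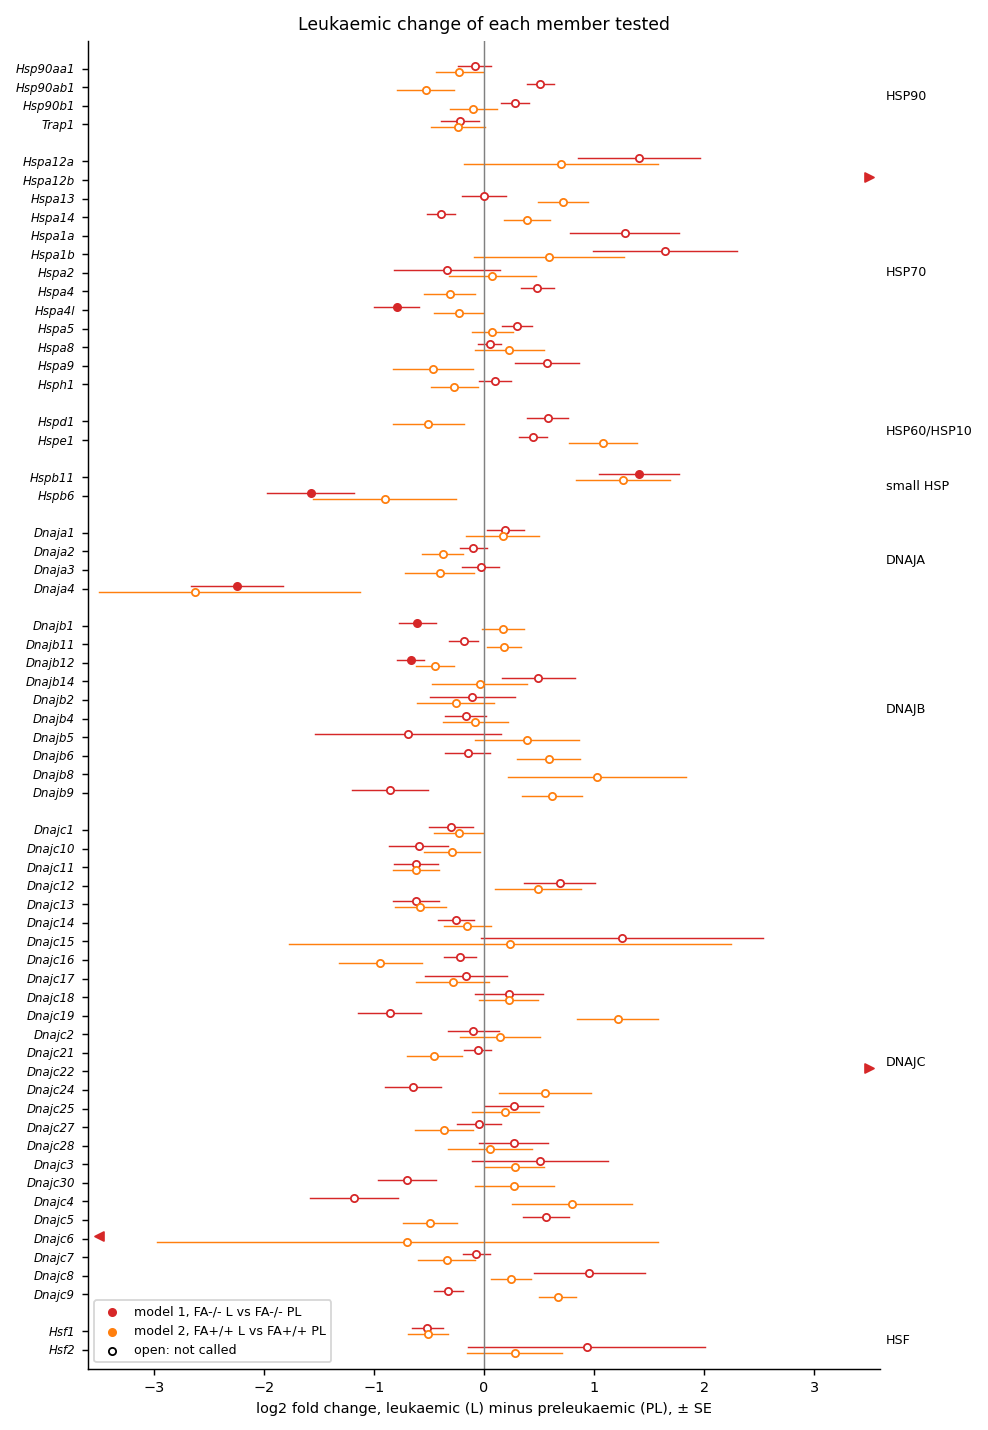
Log2 fold change of each member tested, leukaemic minus preleukaemic, with its SE, by class (red, model 1, TgSpi1FA-/-; orange, model 2, TgSpi1FA+/+). Filled symbols were called and open ones were not; arrows at the edges stand for Hspa12b, Dnajc22 and Dnajc6, whose fitted values lie outside the axis, and the SE of Dnaja4 in model 2 is cut at the edge.

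HSP90 was led by Hsp90ab1, the constitutive cytosolic HSP90 beta and the member with the highest median level per kb of exon in model 1 (1241 CPM per kb) and in model 2 (1033 CPM per kb). In model 1 it was at 3361, 3190, 3864 and 4038 CPM in TgSpi1FA+/+ preleukaemic mice (preleukemic_445, preleukemic_479, preleukemic_451 and preleukemic_138), at 3475, 3425 and 3582 CPM in TgSpi1FA-/- preleukaemic mice (preleukemic_77, preleukemic_224 and preleukemic_40) and at 5022, 4826 and 5093 CPM in leukaemic mice (leukemic_26, leukemic_28 and leukemic_39). The leukaemic mice stood above all others. The difference from TgSpi1FA-/- preleukaemic mice was 0.51 ± 0.12 (log2 ± SE, adjusted p = 0.0299), under the fold change required for a call. Hsp90b1 was at 830 to 941 CPM in TgSpi1FA-/- preleukaemic and 981 to 1142 CPM in leukaemic mice, without overlap (log2 difference 0.28 ± 0.13, adjusted p = 0.17). Hsp90aa1, the stress-inducible HSP90 alpha, and Trap1, the mitochondrial HSP90, had log2 differences of -0.09 ± 0.15 and -0.21 ± 0.17, and their groups overlapped.

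**Figure D2:**
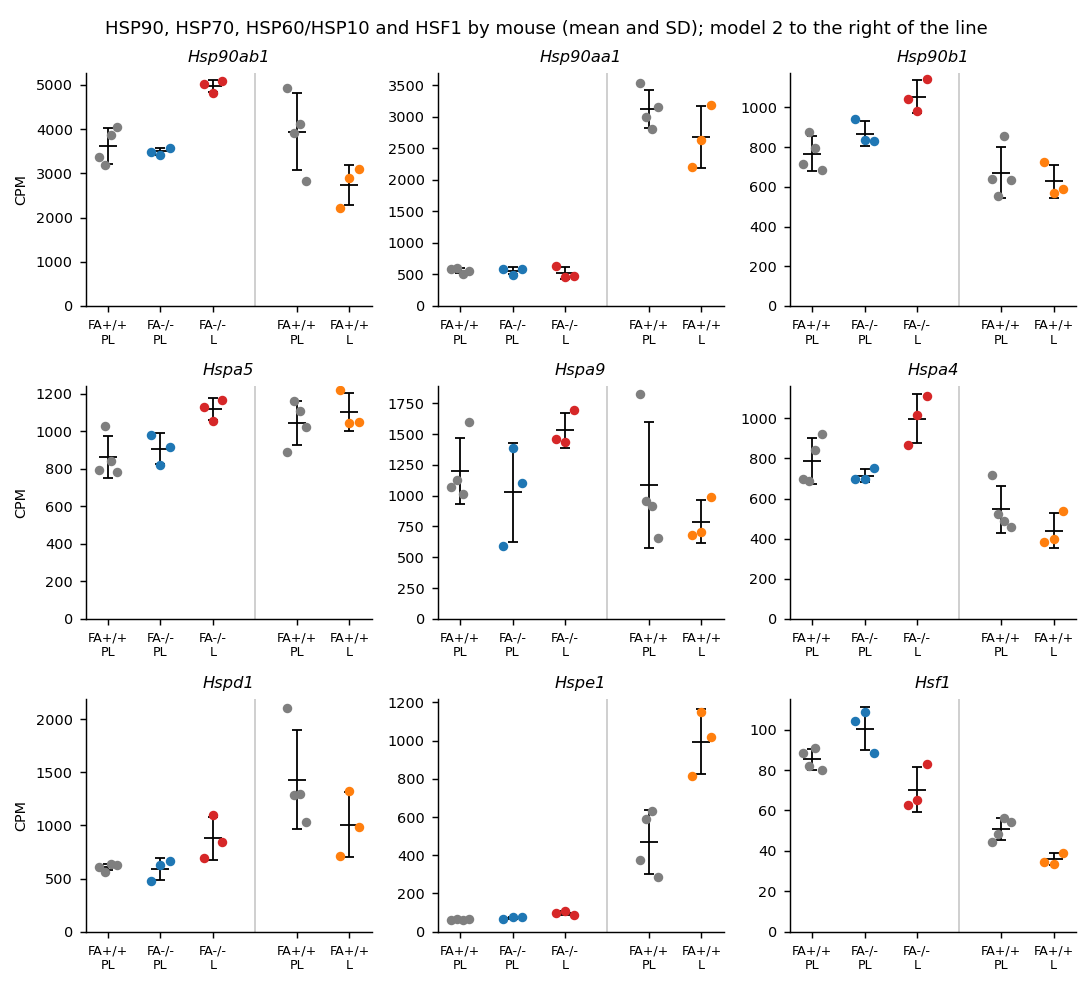
CPM (linear axes from 0) of 9 members by mouse, with the mean and SD of each group (PL, preleukaemic; L, leukaemic; model 2 right of the line). Hsp90ab1 was at 4826 to 5093 CPM in leukaemic and 3425 to 3582 CPM in preleukaemic TgSpi1FA-/- mice, and the leukaemic mice stood above the preleukaemic mice for Hspe1 in both models.

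Among the HSP70 proteins, Hspa12b, a distant relative best known from endothelial cells, had no count in the 3 TgSpi1FA-/- preleukaemic mice and 0.031, 0, 0 and 0.369 CPM in TgSpi1FA+/+ preleukaemic mice (preleukemic_445, preleukemic_479, preleukemic_451 and preleukemic_138). It was at 2.90, 3.91 and 21.4 CPM in leukaemic mice leukemic_26, leukemic_28 and leukemic_39. All 3 leukaemic mice stood above all others, with leukemic_39 far above. With 3 counts per library as the floor, it was at least 99.6-fold higher (adjusted p = 0.0292) and at least 36.1-fold higher without leukemic_39, where the call was lost, as it was without leukemic_28, preleukemic_40, preleukemic_77 or preleukemic_224. Hspa4l, a testis-enriched exchange factor of the HSP110 group, was at 191, 253 and 250 CPM in preleukemic_77, preleukemic_224 and preleukemic_40 and at 174, 106 and 119 CPM in the leukaemic mice, a log2 difference of -0.79 ± 0.20 (adjusted p = 0.0341) whose call was lost in 9 of 18 alternatives. Its leukaemic range overlapped that of the TgSpi1FA+/+ preleukaemic mice, at 166 to 217 CPM.

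The other core HSP70 genes were not called. Hspa4 (APG-2, another exchange factor) was at 695 to 750 CPM in TgSpi1FA-/- preleukaemic and 867 to 1111 CPM in leukaemic mice (0.48 ± 0.15, adjusted p = 0.0608), and Hspa5 was at 823 to 982 and 1054 to 1168 CPM (0.30 ± 0.14, adjusted p = 0.159). Hspa14, which works on the ribosome, was at 160 to 199 and 134 to 144 CPM (-0.39 ± 0.13, adjusted p = 0.0721). Hspa9, the mitochondrial HSP70 mortalin, was at 594, 1385 and 1107 CPM in preleukemic_77, preleukemic_224 and preleukemic_40 and at 1438 to 1692 CPM in leukaemic mice (0.57 ± 0.29, adjusted p = 0.203). Hspa8, the constitutive cytosolic HSP70, and Hsph1 (HSP105) had log2 differences of 0.05 ± 0.10 and 0.10 ± 0.14, and their groups overlapped.

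Hspa1a and Hspa1b, the heat-inducible HSP70 pair, were scarcely expressed. Hspa1a had 5 to 29 reads per library in model 1 and 0 to 3 in model 2, and Hspa1b was at 0.197 to 2.69 CPM in model 1 and 0.252 to 1.64 CPM in model 2. Their promoter windows differed at 4 of 300 bases, and reads from such near-identical genes may be split between them, so each is uncertain by itself. In leukaemic TgSpi1FA-/- mice, Hspa1b was at 2.00, 1.51 and 2.69 CPM against 0.197, 0.965 and 0.809 CPM in preleukemic_77, preleukemic_224 and preleukemic_40 (1.65 ± 0.65, adjusted p = 0.118). With both counted as 1 gene the difference was 1.57 (adjusted p = 0.092).

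The mitochondrial folding chamber, Hspd1 (HSP60) and Hspe1 (HSP10), was higher in each leukaemic mouse. Hspd1 was at 474, 626 and 665 CPM in preleukemic_77, preleukemic_224 and preleukemic_40 and at 696, 1099 and 842 CPM in leukemic_26, leukemic_28 and leukemic_39 (0.58 ± 0.19, adjusted p = 0.0661). Hspe1 was at 65.0, 74.9 and 74.3 CPM and at 97.3, 108 and 86.1 CPM in the same mice (0.45 ± 0.12, adjusted p = 0.0433, a fold change under 1.5). The groups did not overlap for either gene. Exons of the pair overlap on opposite strands.

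Of the small heat shock proteins, Hspb11 (IFT25, a part of the intraflagellar transport complex despite its name) rose and Hspb6 (HSP20) fell. Hspb11 was at 2.72, 3.10 and 2.36 CPM in preleukemic_77, preleukemic_224 and preleukemic_40 and at 8.39, 6.31 and 7.03 CPM in the leukaemic mice (1.41 ± 0.36, adjusted p = 0.0348). Hspb6 was at 8.17, 11.9 and 11.4 CPM and at 5.43, 3.25 and 1.90 CPM (-1.57 ± 0.40, adjusted p = 0.0327). Neither overlapped with the TgSpi1FA+/+ preleukaemic mice, at 2.02 to 4.39 and 8.63 to 11.1 CPM. Each call was lost in 10 of 18 alternatives, among them leaving out any 1 of preleukemic_77, preleukemic_224 and preleukemic_40. Exons of Hspb6 overlap those of Lin37 and Proser3 on the other strand. Hspb1 (HSP25), the best-known small heat shock protein, had no count in 9 libraries of model 1 and 2 counts in leukemic_28, and did not pass the filter in either model.

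Of 4 DNAJA and 9 DNAJB genes tested, Dnaja4, Dnajb1 and Dnajb12 fell. Dnaja4 (chromosome 9, 54698873 to 54716315), a cytosolic J-domain protein, was at 45.4, 40.03 and 48.9 CPM in preleukemic_77, preleukemic_224 and preleukemic_40 and at 13.9, 10.4 and 4.01 CPM in leukemic_26, leukemic_28 and leukemic_39 (-2.25 ± 0.42, adjusted p = 0.0146). TgSpi1FA+/+ preleukaemic mice were at 44.6 to 83.5 CPM, so all 7 preleukaemic mice stood above the leukaemic ones. The call held in all alternatives but 1, without leukemic_28 (adjusted p = 0.0559). Exons of Dnaja4 overlap Wdr61 on the other strand. Dnajb12 (chromosome 10), a membrane J-domain protein of the ER, was at 67.6, 77.1 and 75.8 CPM against 50.0, 47.8 and 41.0 CPM (-0.67 ± 0.12, adjusted p = 0.0146), and its call was lost in 4 of 18 alternatives.

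Dnajb1, the main inducible partner of cytosolic HSP70, was at 113, 141 and 99.7 CPM in preleukemic_77, preleukemic_224 and preleukemic_40 and at 82.3, 73.1 and 76.9 CPM in leukaemic mice (-0.61 ± 0.17, adjusted p = 0.0425). The groups did not overlap, and the call was lost in 14 of 18 alternatives. Dnaja1, another partner of HSP70, and Dnaja3 (TID1, its mitochondrial counterpart) had log2 differences of 0.19 ± 0.17 and -0.03 ± 0.17, with overlap. Dnajb9 (ERdj4) and Dnajb11 (ERdj3), J-domain proteins of the ER, had -0.85 ± 0.35 (adjusted p = 0.123) and -0.19 ± 0.13. No match to either heat shock motif was found in the windows of Dnajb1.

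The 26 DNAJC genes, all of which were tested, were the most varied class in function. Dnajc6 (auxilin, which uncoats clathrin vesicles, best known from neurons) was at 69.1, 92.2 and 37.7 CPM in preleukemic_77, preleukemic_224 and preleukemic_40 and at 0.0274, 0.0767 and 1.57 CPM in leukaemic mice leukemic_26, leukemic_28 and leukemic_39, that is 1, 3 and 62 reads. The log2 difference was -6.87 ± 1.501 (adjusted p = 0.0225) and -10.18 without leukemic_39, and the call was lost without leukemic_28 or preleukemic_224. TgSpi1FA+/+ preleukaemic mice were at 36.9, 42.9 and 45.7 CPM, with preleukemic_138 apart at 2.75 CPM. Dnajc22 had no count in any preleukaemic mouse of model 1 and was at 0.301, 0.664 and 0.913 CPM in the leukaemic mice, at least 6.63-fold higher (adjusted p = 0.0299) and at least 5.12-fold higher without leukemic_39. It had 11 to 36 reads in these mice, and its call was lost without preleukemic_40, preleukemic_77 or preleukemic_224. It failed the filter, and had no test, without leukemic_28, leukemic_39 or preleukemic_138 and at a minimum of 1 CPM.

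Dnajc3 was at 91.0 to 158 CPM in TgSpi1FA-/- preleukaemic mice and at 369, 92.7 and 46.0 CPM in leukaemic mice (0.51 ± 0.62, adjusted p = 0.609). Dnajc2 (ZRF1) and Dnajc21, both of which work with ribosomes, had log2 differences of -0.10 ± 0.23 and -0.06 ± 0.12, and their groups overlapped.

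Hsf1 was at 104, 109 and 88.4 CPM in preleukemic_77, preleukemic_224 and preleukemic_40 and at 62.6, 65.2 and 83.1 CPM in leukaemic mice. The groups did not overlap, and the difference of -0.52 ± 0.14 (adjusted p = 0.0425) did not reach the fold change required. Hsf2 was at 13.2 to 21.8 CPM in 9 libraries of model 1 and at 0.0657 CPM in preleukemic_77, which was 2 reads (0.93 ± 1.08, adjusted p = 0.588). In the other table of counts, described further on, Hsf2 was at 0.125 CPM in preleukemic_445.

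**Figure D3:**
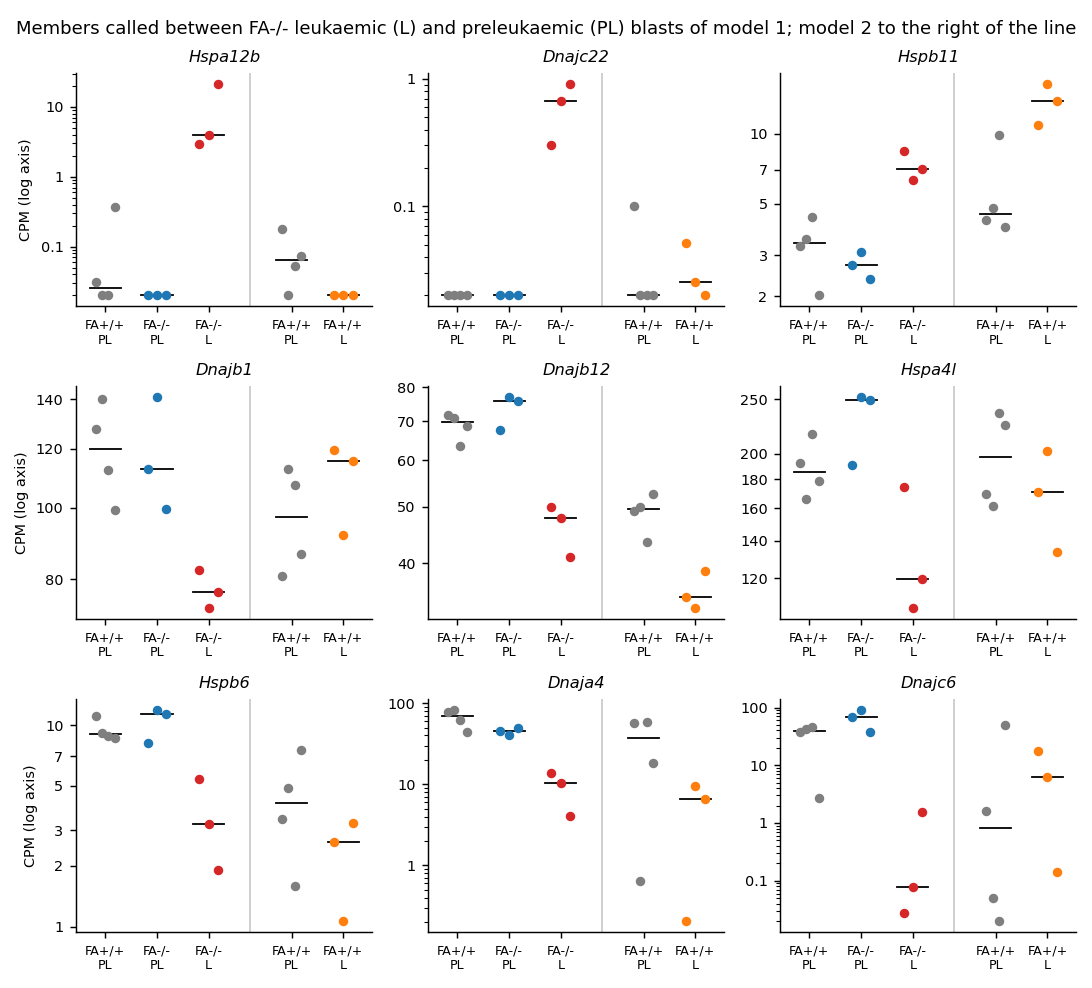
CPM (log axes) by mouse of the 9 members called in model 1, with the median of each group (PL, preleukaemic; L, leukaemic; model 2 right of the line); values under 0.02 CPM are drawn at 0.02. The leukaemic TgSpi1FA-/- mice do not overlap with the preleukaemic TgSpi1FA-/- mice in any panel, whereas Dnajc6 and Dnaja4 spread widely among the mice of model 2.

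TgSpi1FA-/- and TgSpi1FA+/+ preleukaemic mice of model 1 were compared to ask what goes with the loss of Fanca before leukaemia. This comparison shares the TgSpi1FA-/- preleukaemic libraries with the comparison above. No member was called by edgeR or by DESeq2, against 0.00747% and 1.87% of all genes. An unadjusted p under 0.05 in edgeR was reached by 2 members and by 8.65% of all genes. Dnajc10 (ERdj5, a disulphide reductase of the ER) was at 159.8 to 224.2 CPM in TgSpi1FA+/+ and at 228 to 355 CPM in TgSpi1FA-/- mice (0.61 ± 0.25, unadjusted p = 0.0365, adjusted p = 0.557), without overlap. Dnajb4, a relative of Dnajb1, was at 45.0 to 70.0 and 41.4 to 46.9 CPM (-0.41 ± 0.17, unadjusted p = 0.0413, adjusted p = 0.561), with overlap. The median over the members was 0.01, against 0.0048 over all genes. Hsp90ab1 and Hspa5 had log2 differences of -0.05 ± 0.12 and 0.08 ± 0.13, and Hspd1 and Hsf1 had -0.05 ± 0.17 and 0.24 ± 0.13.

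Leukaemic and preleukaemic mice of model 2 were compared to follow progression when Fanca is present. Of 60 members tested, 0 were called by edgeR and 0 by DESeq2, against 0% and 3.45% of all genes. An unadjusted p under 0.05 in edgeR was reached by 10 members, 5 higher and 5 lower, and by 19.9% of all genes. The median over the members was 0.0073 and that over all genes was -0.03.

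The 5 higher members in model 2 included Hspe1 and Dnajc19, both of the mitochondria. Hspe1 was at 376, 592, 631 and 285 CPM in preleukaemic mice preleukemic_633, preleukemic_663, preleukemic_812 and preleukemic_837 and at 816, 1151 and 1017 CPM in leukaemic mice leukemic_601, leukemic_606 and leukemic_921 (1.08 ± 0.31, adjusted p = 0.162). Dnajc19 (TIM14, the J-domain protein of the inner membrane import motor) was at 14.0, 35.8, 30.6 and 20.3 CPM and at 38.4, 66.3 and 70.4 CPM (1.21 ± 0.37, adjusted p = 0.173). Neither gene overlapped between the groups. Dnajc9, a histone co-chaperone, was at 101 to 131 and 164 to 213 CPM (0.67 ± 0.17, adjusted p = 0.162). Hspa13, an HSP70 of the microsomes, was at 64.5 to 114 and 123 to 138.2 CPM (0.72 ± 0.22, adjusted p = 0.174). Hspb11 was at 4.26, 4.77, 9.84 and 3.98 CPM and at 10.9, 16.4 and 13.8 CPM (1.26 ± 0.43, adjusted p = 0.184), and its groups did not overlap in model 2 either.

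The 5 lower members in model 2 were Dnajb12, Dnajc11, Dnajc13, Dnajc16 and Hsf1. Dnajb12 was at 43.5 to 52.5 CPM in preleukaemic and 33.5 to 38.8 CPM in leukaemic mice (-0.45 ± 0.18, adjusted p = 0.22), and Hsf1 was at 44.5 to 56.3 and 33.7 to 39.2 CPM (-0.51 ± 0.18, adjusted p = 0.195), both without overlap. Dnajc13 (RME-8, of endosomes) had -0.58 ± 0.23 (adjusted p = 0.223) without overlap. Dnajc11, of the mitochondria, and Dnajc16, of the ER, had -0.62 ± 0.21 and -0.94 ± 0.37 (adjusted p = 0.185 and 0.223), and their groups overlapped.

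The remaining core genes of model 2 overlapped between the groups. Hsp90ab1 was at 4928, 3902, 4123 and 2825 CPM in preleukaemic and at 2222, 2888 and 3099 CPM in leukaemic mice (-0.53 ± 0.26, adjusted p = 0.30), and Hsp90aa1 had -0.22 ± 0.21. Hspd1 was at 1028 to 2108 and 713 to 1327 CPM (-0.51 ± 0.32, adjusted p = 0.413), while its partner Hspe1 stood higher. Hspa5, Hspa8 and Hspa9 had 0.08 ± 0.18, 0.23 ± 0.31 and -0.46 ± 0.36. Dnajb1 was at 80.9 to 113 CPM in preleukaemic and 91.7 to 120 CPM in leukaemic mice (0.17 ± 0.19). Dnaja4 ranged from 0.65 to 58.4 CPM among the preleukaemic mice alone, and Dnajc6 from 0 to 50.5 CPM.

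Whether the models differed in their leukaemic change was tested by an interaction term in 1 fit of the 17 libraries, over 14597 genes past the filter. Strain, protocol, Fanca status and the blood transfusions of model 2 differ between the models and cannot be told apart in it. The counting of reads may differ between the models as well. Hspa8 was at 55.1 to 67.5 CPM in model 1 and at 1713 to 4066 CPM in model 2. In the other table of counts, described further on, mice of model 1 had 1331 to 2325 CPM. The part of this in the differences between the models was not tested. Of 63 members tested, 3 had a more positive change in model 1 (Hsp90ab1, Hspa12b and Hspa1a) and 2 a more negative one (Dnajc9 and Dnajc19), with 2.76% and 1.85% of all genes. Hspa12b and Hspa1a failed the filter in model 2 and passed here through model 1, where they were highest in the leukaemic mice. Their calls, and so the count of 3, are no support for a more positive change among the members. The difference was 1.02 ± 0.27 for Hsp90ab1 (adjusted p = 0.0484), -1.01 ± 0.20 for Dnajc9 (adjusted p = 0.0285) and -2.08 ± 0.48 for Dnajc19 (adjusted p = 0.035). In model 1, Dnajc19 was at 12.8, 14.3 and 12.4 CPM in preleukemic_77, preleukemic_224 and preleukemic_40 and at 9.73, 6.41 and 5.68 CPM in leukaemic mice, and Dnajc9 was at 123 to 163 and 108 to 120 CPM, so both stood lower in leukaemic mice of model 1 and higher in those of model 2. Exons of Dnajc19 overlap Fxr1 on the other strand. Hspa12b had 0 to 7 reads per library in model 2. The call of Hspa1a rests on 0 to 3 reads per library in model 2 and was lost when Hspa1a and Hspa1b were summed (difference 1.08, adjusted p = 0.48).

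DESeq2 called 10 members in the difference between the models, 6 positive and 4 negative, beside 1387 and 650 of all genes. The share of all genes was not computed for DESeq2 here, so its count is no result about the members. The edgeR count fell to 0 without leukemic_28, leukemic_39, preleukemic_77, preleukemic_224, leukemic_601 or leukemic_921, to 1 without preleukemic_40, preleukemic_445 or leukemic_606, to 2 without preleukemic_633 and to 3 without preleukemic_138, preleukemic_451 or preleukemic_479, and it was 10 without preleukemic_812. Those 10 were Hsp90ab1, Hspa12b, Hspa1a, Hspa4, Hspd1 and Dnajc5 with a positive and Dnajb9, Dnajc4, Dnajc9 and Dnajc19 with a negative difference. The share of all genes called was not computed with mice left out, so these counts are no result about the members. The edgeR call of Hsp90ab1 was lost in 16 of 23 alternatives, with differences of 0.87 to 1.13. Dnajc5, a J-domain protein of synaptic vesicles (1.04 ± 0.31, adjusted p = 0.0635), Hspa4 (0.78 ± 0.27, adjusted p = 0.0886) and Hspd1 (1.06 ± 0.37, adjusted p = 0.0908) missed the threshold, as did Dnajb9 (-1.48 ± 0.43, adjusted p = 0.0596), Hspa14 (-0.79 ± 0.24, adjusted p = 0.0662) and Dnajb1 (-0.79 ± 0.25, adjusted p = 0.0742). For Hsf1 the difference was -0.02 ± 0.21 (adjusted p = 0.959).

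Lists by compartment were read by counts, beside the shares of all genes. In model 1 edgeR called 6.82% of all genes higher and 6.49% lower, and DESeq2 12.1% and 7.71%. An unadjusted p under 0.05 was reached by 32.4%. Of the 12 heat-inducible cytosolic genes tested in model 1, 0 rose and 2 fell (Dnajb1 and Hspa4l), with a median of 0.15. At an unadjusted p under 0.05, 5 of them were higher and 2 lower, and DESeq2 called 2 higher and 1 lower. Of 12 ER genes 1 fell (Dnajb12), with a median of -0.09, and of 11 mitochondrial genes none was called (4 lower and 2 higher at an unadjusted p under 0.05, DESeq2 calling 1 higher and 2 lower), with a median of -0.03. In model 2 the medians of these lists were -0.08, 0.02 and 0.05. EdgeR and DESeq2 called 0 of their genes, against 0% and 3.45% of all genes. An unadjusted p under 0.05 was reached by 1, 3 and 3 genes, and by 19.9% of all genes.

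Among other genes of the pathway, 36 co-chaperones of HSP70 and HSP90 were tested in model 1, of which 1 rose and 5 fell, beside 6.82% and 6.49% of all genes. DESeq2 called 2 higher and 5 lower, and 7 were higher and 8 lower at an unadjusted p under 0.05. Fkbp5, a steroid receptor immunophilin, rose (1.38 ± 0.23, adjusted p = 0.0103), and Bag1 (-1.20 ± 0.22, adjusted p = 0.0136), an exchange factor of HSP70, and Unc45a (-1.04 ± 0.13, adjusted p = 0.0053), a myosin chaperone, were among those that fell, with Fkbp8 and Aarsd1. None of the 8 TRiC/CCT chaperonin genes, which fold actin and tubulin, was called by edgeR or DESeq2 (3 at an unadjusted p under 0.05), and all 8 had positive values, with a median of 0.11. Of 22 ER stress genes 1 rose, Trib3 (1.45 ± 0.32, adjusted p = 0.0242), with a median of 0.13. Ahsp was not among the genes tested, and Eif2ak1 and Gata1 were not called in model 1 by either tool (0 at an unadjusted p under 0.05). In model 2 edgeR called 0 genes of these lists, with 8 at an unadjusted p under 0.05, and DESeq2 called 1 co-chaperone and 1 ER stress gene. The shares of all genes given with the compartment lists stand beside these counts too.

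Members far from the other libraries of their model were listed, a look added after their values were seen. A member was at least 1 log2 unit (pseudocount 0.5 CPM) from the median of the other libraries of its model in 75 pairs of member and library. These pairs involved 24 members. The other libraries were taken over all groups, so a change shared by a group was counted too. Dnajc6, Dnaja4, Hspa12b and Dnajc15 were listed for each of leukemic_26, leukemic_28 and leukemic_39. The genes starting within 1 Mb of the member moved the same way, by a median of at least 0.5, in 11 of the 68 pairs with 5 or more such genes. The shares over all genes were not computed, so these counts are no result about the members. Positions came from GENCODE M21 (GRCm38).

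Dnajc8, a J-domain protein of the spliceosome, was at 970 CPM in leukemic_26 and at 202 to 297 CPM in the other mice of model 1. Its deviation was 2.09, and the median of 42 neighbours was 1.93, with 37 of them at least 1 higher. The median over chromosome 4 was 0.04, so the raised stretch did not span the chromosome. Hspa9 on chromosome 18 deviated by -1.22 in preleukemic_77, where 30 neighbours had a median of -0.83 and the whole chromosome, with 332 genes, also -0.83. Hspa9 and Dnajc18, at 11.7 CPM in preleukemic_77 and 16.8 to 28.2 CPM in the other mice, both lie on that chromosome.

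By contrast, the low level of Hsf2 in preleukemic_77 (deviation -4.87) was not shared by its 6 neighbours. They had a median of 0.06, and 1 of them was at least 1 lower. Dnajc15 (MCJ, a mitochondrial J-domain protein) had no count in preleukemic_138, preleukemic_663 and leukemic_606 and was at 4.20 to 39.9 CPM in the other 14 mice. In preleukemic_138 its 7 neighbours had a median of -1.45. Dnajc3 deviated by 1.81 in leukemic_26 and by -1.20 in leukemic_39, with medians of 1.12 and -1.01 over 7 neighbours. For Dnajc6 and Dnaja4 in the leukaemic mice of model 1 the neighbours' medians were between -0.49 and 0.02.

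**Figure D4:**
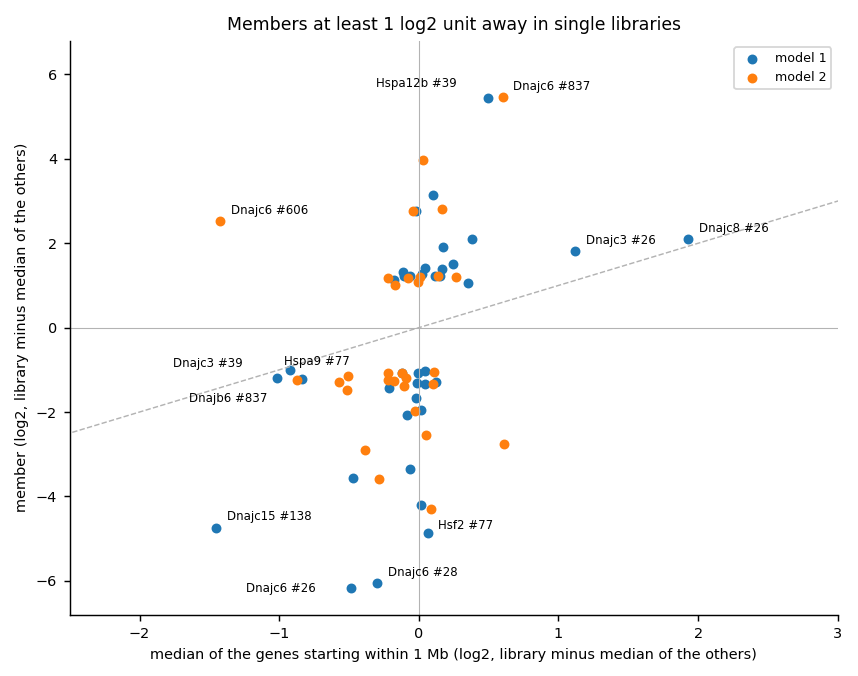
Members at least 1 log2 unit from the median of the other libraries of their model (vertical) against the median of the genes starting within 1 Mb, computed alike (horizontal), for the 68 pairs of member and mouse with 5 or more neighbours; on the dashed line both moved equally. Dnajc8 in leukemic_26 lies near the line, at 2.09 and 1.93, and Hsf2 in preleukemic_77 far from it, at -4.87 and 0.06.

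The leukaemic TgSpi1FA-/- and preleukaemic TgSpi1FA+/+ mice of model 1, 7 in all, also stood under the same numbers in another deposited table. It was used to check the levels (CPM of the total count, with 0.1 added for ratios). Over 62 members the median ratio of that table to the first was 0.82, and 54 lay within 0.5 and 2. Hspa8 was at 60.5 to 66.3 CPM in the first table and at 1331 to 2325 CPM in the other. Dnajb6 (median ratio 5.67), Hspe1 (4.30), Hsp90aa1 (3.62) and Dnaja1 (2.15) were also counted lower in the first table. A median ratio over 2 was found for 5 members (8.06%) and for 11.7% of all genes. The cause was not tested, and levels of these members in model 1, and their rank against other members, depend on the table.

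Between leukaemic TgSpi1FA-/- and preleukaemic TgSpi1FA+/+ mice, 50 of the 62 members had the same sign in both tables. The log2 ratio of means was -2.77 and -1.64 for Dnaja4, -0.58 and -0.58 for Dnajb1, -0.52 and -0.65 for Dnajb12 and 1.16 and 1.88 for Hspb11 in the first and the other table, without overlap in either. For Hsp90ab1 it was 0.51 and 0.35, but the groups overlapped in the other table, at 3110 to 3947 CPM in leukaemic and 2380 to 3224 CPM in preleukaemic mice. Hspd1, Hspe1, Hsp90b1 and Hspa5 likewise did not overlap in the first table and overlapped in the other, where Hspe1 was at 315 to 804 CPM in leukaemic and 241 to 424 CPM in preleukaemic mice. Hspa1b turned from 1.004 to -0.96.

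**Figure D5:**
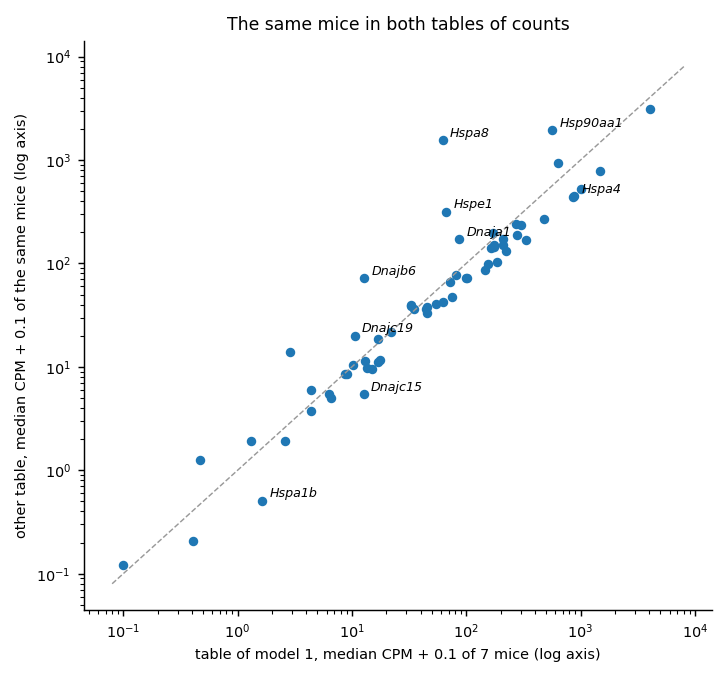
Median CPM of each tested member over the 7 mice with the same numbers in the table of model 1 and in the other table (both axes logarithmic, 0.1 added), with the line of equality. Most members lie near the line, and Hspa8 lies far above it, at 60.5 to 66.3 CPM in the first and 1331 to 2325 CPM in the other table.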

How the data were processed

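RNA-seq of 17 mice was analysed, with 1 library per mouse. The authors deposited unnormalized whole-number counts of reads for Ensembl genes, in tables of 26029 genes (model 1) and 24659 genes (model 2), and a further table for 7 mice of model 1 that was used for checks; 1 more deposited table, which repeats model 2, was left out. The submitters' processing notes name bcl2fastq 2.17.1.14, STAR 2.5.3a, HTSeq 0.6.1p1 and the build GRCm38 (mm10); the strand setting of the counting is not given in the sources used here, so reads of genes whose exons overlap on opposite strands cannot be told apart.

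Counts were filtered with filterByExpr, scaled by TMM and tested with edgeR 4.0.16 (glmQLFit and glmQLFTest, R 4.3.3), each model on its own with all its groups, and both together for the difference between models. Calls required a Benjamini-Hochberg adjusted p under 0.05 over all genes tested and a fold change of at least 1.5. The SE of a log2 fold change is its size divided by the root of F. DESeq2 1.42.0 was an alternative, as were its size factors, other filters, robust fitting, the adjusted p alone, only the compared groups, preleukemic_445 and preleukemic_479 averaged, Hspa1a and Hspa1b summed and leaving out each mouse. Fold bounds against groups without counts used a floor of 3 counts per library, which covers counting error only. Levels in the other table and single mice beside neighbouring genes were alternatives chosen after seeing the data. The scripts were tested on simulated data.

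The members and lists were chosen with earlier results of these data known. Named were members called, up to 5 higher and 5 lower members with the smallest unadjusted p under 0.05 where fewer than 10 were called, the core HSP90, HSP70, HSP60, HSP10 and HSF genes and 9 examples. The replicates are mice, but separate cultures are not stated. One of the co-chaperones counted is not reported here by itself.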

Additional observations from a re-analysis of the deposited data

Results flagged for a closer look

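Of 79 groups of 4 preleukaemic mice examined over 41 named members, 6 held a mouse far from the other 3 by Dixon's test, which chance alone gives in about 1 group of 20. In TgSpi1FA+/+ preleukaemic mice of model 1, Dnaja1 was at 73.7 CPM in preleukemic_451 against 86.0 to 88.1 CPM in the others, Dnajc10 at 224.2 CPM in preleukemic_138 against 159.8 to 169 CPM, Hspa12b at 0.369 CPM in preleukemic_138 against 0 to 0.0312 CPM, and Hspa8 at 67.5 CPM in preleukemic_479 against 62.9 to 63.6 CPM. In preleukaemic mice of model 2, Dnajc6 was at 50.5 CPM in preleukemic_837 against 0 to 1.59 CPM, and Hspb11 at 9.84 CPM in preleukemic_812 against 3.98 to 4.77 CPM.

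The leukaemic change differed between models 1 and 2 for 5 members by the interaction term of edgeR: Dnajc19 (-2.08, adjusted p = 0.035), Dnajc9 (-1.01, adjusted p = 0.0285), Hsp90ab1 (1.02, adjusted p = 0.0484), Hspa12b (15.9, adjusted p = 0.0345) and Hspa1a (5.18, adjusted p = 0.0484), in log2 units. The values of Hspa12b and Hspa1a rest on groups with few or no reads. They are no measure of size and no support for a difference among the members.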

How the results depend on the processing

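No paired analysis was possible because the groups share no replicate numbers. In the comparison of leukaemic and preleukaemic TgSpi1FA-/- mice, 9 members were called as reported, 5 with only the 2 groups compared, 5 with preleukemic_445 and preleukemic_479 averaged and 0 to 13 with 1 mouse left out. In the difference between the models, 5 were called as reported, 10 with DESeq2's Wald test, 3 without a filter on low counts and 0 to 10 with 1 mouse left out. Shares of all genes were not computed under these alternatives, so the changing counts are no result about the members. No member was called in the other comparisons under any alternative run. The medians over the members stayed between -0.10 and -0.03, between -0.01 and 0.04, between -0.14 and 0.06 and between -0.02 and 0.18 in the comparisons in the order of the report. Of 744 values of single members under an alternative, 610 kept their direction and their side of the threshold, 117 lost the call, 17 gained it and 0 turned direction. Only named members with an unadjusted p under 0.05 in the comparison were recomputed, besides the sum of Hspa1a and Hspa1b. This choice left little room for a turn of direction, so the 0 is no support for the directions. The levels of Hspa8, Hsp90aa1, Hspe1, Dnajb6 and Dnaja1 depend on the table of counts, and Dnajc22, Hspa1a and Hspa12b are limited by depth.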
